A study of Mus musculus with 20 samples.

Results

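The comparison described here set haematopoietic stem cells homozygous for a Runx2 knockout (hom) against wild-type (WT) stem cells of mouse, in bulk RNA sequencing of polyadenylated RNA. Its members are the 3 hom and the 3 WT libraries of the stem cell count table, 6 of the 18 RNA libraries of the series, and every gene was described that passed the filter on low counts, 14959 of the 49997 in the table. Hom cells carried both Runx2 alleles as knockouts, het cells 1, and WT cells none. All were primary bone marrow cells, cultured, of the phenotype CD201+CD150+cKit+Sca1+Lineage-, called HSC below. The design text names Runx2-flox mice and CRISPR as routes to the knockout. Route, deleted exons, strain and age are not stated for any library. The 3 het HSC libraries share the fit, and 9 libraries of CD201-CD150-cKit+Sca1+Lineage- progenitor cells (HPC; hom, het and WT) serve as a second population. The labels number the replicates and do not say whether they are separate animals or cultures, so p-values measure the spread between these libraries, which may be technical.

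RUNX2 is 1 of the RUNX transcription factors, which bind DNA together with the partner CBFB and can activate or repress a gene. It is best known as the factor that commits cells to bone, while RUNX1 is required to form blood stem cells and RUNX3 acts in T cells and natural killer cells. The title of the series links Runx2 to expansion of stem cells and to T-lineage commitment, and this comparison asks which transcripts differ when both copies are knocked out.

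The hom libraries held 18050298 to 21728340 counts assigned to genes and the WT libraries 18471641 to 23417608. Mitochondrial genes took 1.54% to 2.09% of the counts in these 6 libraries. On the first principal component of all tested genes, which took 24.8% of the variance, the hom libraries lay at 13.7 to 40.2 and the WT libraries at -24.5 to -18.5. The hom libraries were spread more widely on the second component (20.3% of the variance), where hom replicate 1 lay at 42.0 and hom replicate 3 at -20.1, against -6.91 to 11.4 in WT. In bulk RNA, fewer cells of a type and less RNA per cell cannot be told apart.

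**Figure D1:**
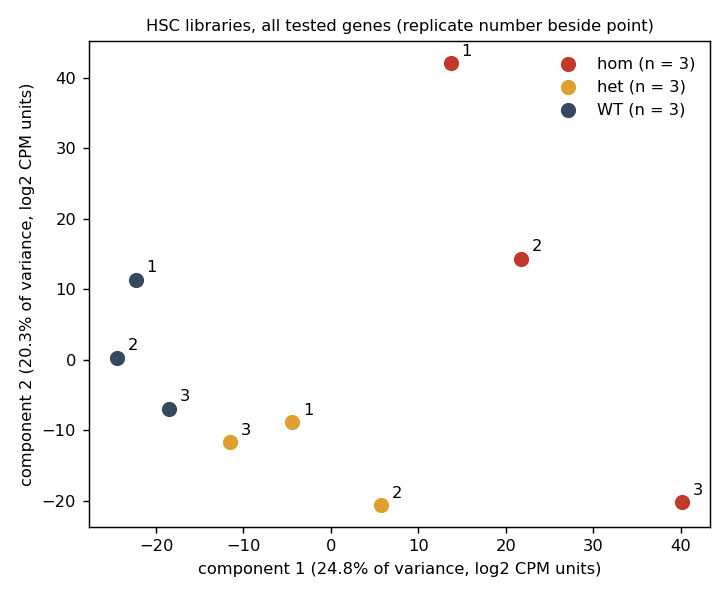
Position of the 9 HSC libraries on the first 2 principal components of log2 CPM over all 14959 tested genes, with the replicate number beside each point. The 3 hom libraries lie to the right of the 3 WT libraries on component 1, the het libraries lie between them, and hom replicates 1 and 3 lie far apart on component 2.

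Runx2 itself, checked first in every library, followed the labels. It had 27.3, 30.6 and 27.1 CPM (read counts scaled to library size) in hom libraries 1 to 3, against 125, 133 and 130.1 CPM in WT libraries. Het libraries had 90.3, 96.4 and 86.5 CPM, and none of the groups overlapped. Hom cells kept 21.9% of the WT level (log2 fold change -2.20 ± 0.08, SE; edgeR adjusted p = 7.54e-10). Counts are summed over all exons of a gene, so transcripts that lack only the deleted part still add to the Runx2 level. The hom change of Runx2 was -2.42 ± 0.07 in HPC, and the difference between both populations did not pass (log2 0.19 ± 0.09, edgeR adjusted p = 0.287). The other genes of the complex did not pass the test. Runx1 had 199.7, 211 and 222 CPM in hom and 174, 197 and 189 CPM in WT libraries (log2 0.16 ± 0.07, edgeR adjusted p = 0.242). Runx3 had 144, 151 and 149 CPM in hom and 134, 131 and 135 CPM in WT libraries, 2 groups without overlap (log2 0.14 ± 0.06, edgeR adjusted p = 0.243). Cbfb had 189, 172 and 160.5 CPM in hom and 189, 188 and 182 CPM in WT libraries (log2 -0.11 ± 0.07, edgeR adjusted p = 0.436).

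The genes behind the surface phenotype did not pass the test. Procr, the gene of CD201, had 37.8, 56.7 and 68.1 CPM in hom and 42.2, 45.5 and 57.1 CPM in WT libraries, with overlapping groups (log2 0.15 ± 0.17, edgeR adjusted p = 0.683). Slamf1, the gene of CD150, had 17.1, 21.2 and 17.2 CPM in hom and 21.6, 18.8 and 20.2 CPM in WT libraries (log2 -0.14 ± 0.12, edgeR adjusted p = 0.578). Kit, the receptor for stem cell factor, had 477, 538 and 565 CPM in hom and 466, 469 and 483 CPM in WT libraries (log2 0.14 ± 0.08, edgeR adjusted p = 0.327). All 3 genes were expressed in every library, and their hom and WT libraries overlapped. Ly6a, the gene of Sca1, was listed at 0 counts in each of the 9 HSC libraries although the cells were sorted on its protein. Rrm2 and Atf4, which dividing cells use, were listed at 0 in the hom and WT libraries too, so a 0 in these tables is not read as absence. Of 27 tested genes of HSC identity, 1 fell and none rose. That gene is Fhl1, a LIM-domain protein, with 2.88, 6.12 and 4.89 CPM in hom and 11.5, 13.7 and 8.84 CPM in WT libraries (log2 -1.30 ± 0.26, edgeR adjusted p = 0.0212). Without WT replicate 1 or 2 its adjusted p was 0.0753 or 0.117. The median change of the list was -0.14 (log2), and the mean over the list, relative to WT, was -0.53, -0.22 and 0.00 in hom libraries 1, 2 and 3, so hom replicate 1 was low and hom replicate 3 level with WT.

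Of the 14959 genes, 300 were called at an edgeR adjusted p under 0.05 (2.01%). In hom HSC 180 were higher (1.2%) and 120 lower (0.802%) than in WT HSC. These are the shares to set beside the counts of called list members below. The hom and WT libraries did not overlap for any of the 300, and the same held for 3643 of all tested genes (24.4%). Most changes were small. The median was 0.71 (log2) among the higher genes and -0.57 among the lower ones, against 0.00 over all genes, and 54 higher and 35 lower genes changed by at least 1. Just inside the threshold stood Kbtbd2 (adjusted p = 0.0486) and Yes1 (0.0499), and just outside it Actr3b and Capn1 (both 0.0501). An unadjusted p under 0.05 was found for 2759 of the tested genes (18.4%). A second tool, DESeq2, called 427 genes higher and 383 lower. The higher genes included 40 predicted genes of 2352 tested and the lower genes 4. The mean of the het libraries, which share the fit and the WT libraries, lay between the hom and WT means for 168 of the 180 higher and 107 of the 120 lower genes. These genes were selected for a difference between hom and WT, which favours a het mean between them. The share over all tested genes was not counted, and an effect of Runx2 dose was not tested.

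Many calls changed with the libraries in the fit. When each of the 6 libraries was left out in turn, 42 of the 300 genes (0.281% of those tested) were called in all 6 fits, and 187 in at most 2. Without WT replicate 2 the fit called 48 genes and kept 47 of the 300, without WT replicate 1 it called 76 and kept 75, and without WT replicate 3 it called 92 and kept 87. It called 71 genes without hom replicate 2 and kept 69. Without hom replicate 1 it called 592 genes and kept 262 of the 300. Without hom replicate 3 it called 638, of which 303 were higher and 335 lower, and kept 272 of the 300. Each such fit also has fewer libraries in a group, and the part of group size in these counts was not tested. Of the 42 genes that held throughout, 26 were higher and 16 lower. Many genes described below are not among the 42. Of the called interferon response genes 4 of 11 are, and of the called genes of G2 and mitosis 1 of 7.

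**Figure D2:**
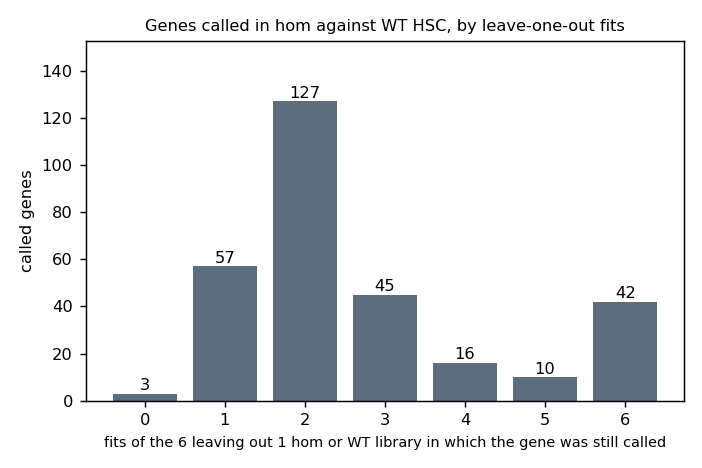
Number of the 300 genes called in hom against WT HSC (vertical axis) by how many of the 6 fits that leave out 1 hom or WT library still called them (horizontal axis). The tallest bar is 127 genes at 2 fits, and 42 genes stand at 6.

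Promoters of tested genes were searched for the core RUNX motif TGTGGT. Windows of 3 called genes that hold it were picked as examples and are printed to show where it lies. Il18r1 and Rgs8 have 3 RefSeq windows each, and the first that holds the motif is printed. A gene was counted below if any of its windows held the motif. Windows run from 250 bases before to 50 after the start of a gene in RefSeq (GRCm38.p6, the same assembly as mm10), both strands were searched, and capitals mark the motif, which reads ACCACA where it lies on the other strand. Runx2 itself holds it 3 times (chr17:44814578-44814877, minus strand), Il18r1, which fell, once (chr1:40465371-40465670, plus strand), and Rgs8, which rose, once (chr1:153652787-153653086, plus strand).
Runx2: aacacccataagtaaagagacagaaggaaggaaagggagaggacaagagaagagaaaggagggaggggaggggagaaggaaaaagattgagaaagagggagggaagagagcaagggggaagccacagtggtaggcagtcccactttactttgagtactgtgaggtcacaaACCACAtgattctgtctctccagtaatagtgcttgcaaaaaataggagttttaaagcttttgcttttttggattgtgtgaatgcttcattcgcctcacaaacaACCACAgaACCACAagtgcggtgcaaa
Il18r1: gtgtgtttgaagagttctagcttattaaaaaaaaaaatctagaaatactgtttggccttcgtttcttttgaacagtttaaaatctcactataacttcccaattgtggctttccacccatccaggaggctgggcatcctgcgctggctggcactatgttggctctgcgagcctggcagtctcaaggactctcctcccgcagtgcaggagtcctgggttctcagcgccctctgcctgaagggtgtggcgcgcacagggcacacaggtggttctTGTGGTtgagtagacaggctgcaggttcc
Rgs8: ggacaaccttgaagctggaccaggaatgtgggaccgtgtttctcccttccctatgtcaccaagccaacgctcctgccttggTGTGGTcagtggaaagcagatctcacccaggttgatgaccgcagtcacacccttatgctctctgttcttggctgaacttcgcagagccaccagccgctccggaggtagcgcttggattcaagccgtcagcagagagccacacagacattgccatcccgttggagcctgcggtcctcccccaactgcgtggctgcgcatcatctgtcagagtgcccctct

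The motif was found for 27 of the 130 higher genes with a promoter in the table (20.8%) and 17 of the 97 lower ones (17.5%), against 1779 of all 11218 tested genes with one (15.9%). The variant TGCGGT was found for 11.5% of the higher and 11.3% of the lower genes, against 10.8% of all. No share was tested. TGCGGT was chosen after the calls were seen. A match is a description of the sequence, not of binding.

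The smallest p-values after Runx2 itself belonged to 2 genes of lymphoid cells, Il18r1 and Tox, and both fell. Il18r1, the chain of the interleukin-18 receptor that binds the cytokine, had 2.66, 3.22 and 2.52 CPM in hom libraries, against 11.8, 11.7 and 8.58 CPM in WT libraries. The highest hom library stood well under the lowest WT library, and the het libraries, with 6.06, 5.23 and 5.3 CPM, stood between. Its level in hom was 26.2% of WT (log2 -1.94 ± 0.20, edgeR adjusted p = 0.000725, held in all 6 fits). Its co-receptor Il18rap had a log2 change of -0.18 ± 0.08 and did not pass (edgeR adjusted p = 0.219), nor did the other 15 tested genes of the interleukin-1 and interleukin-18 receptor family. Il18r1 lies at chromosome 1, 40465552 to 40500854 (mm10).

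Tox, an HMG-box factor needed for CD4 T cells and innate lymphoid cells, had 7.7, 7.78 and 8.41 CPM in hom and 22.5, 16.9 and 17.3 CPM in WT libraries, and fell to 42.2% (log2 -1.25 ± 0.14, edgeR adjusted p = 0.00173, held in all 6 fits). Tcf7, which encodes TCF1 and acts early in T-cell specification, had 7.31, 6.44 and 5.73 CPM in hom and 10.8, 14.7 and 11.1 CPM in WT libraries (log2 -0.92 ± 0.17, edgeR adjusted p = 0.0154). Its groups did not overlap, and its adjusted p rose to 0.101 without WT replicate 2 and 0.0806 without hom replicate 2. These were 2 of 12 tested early T-cell factors, and edgeR called none of the 12 higher. DESeq2 called 1 of the list higher and 4 lower. The median change of the 12 was -0.03, with 5 positive and 7 negative. Gata3, another early T-cell factor, did not pass (log2 -0.01 ± 0.17). Hes1, a Notch target, had a log2 change of -1.72 ± 0.45 and did not pass (edgeR adjusted p = 0.0618). Zbtb7b, also in the list, had a positive change of 0.44 ± 0.11 and did not pass either (edgeR adjusted p = 0.0544). Thy1, the surface glycoprotein of mouse T cells that is also found on blood progenitors, had 23.2, 20.2 and 17.7 CPM in hom and 36.1, 35.9 and 29.9 CPM in WT libraries. It was the only called gene of 12 tested T-cell surface genes (log2 -0.75 ± 0.14, edgeR adjusted p = 0.0165), a call lost without WT replicate 1, WT replicate 2 or hom replicate 2 (0.0753 to 0.0973). The defining T-cell genes Cd3e, Cd2, Cd8a, Trac and Trbc1 were listed at 0 in all hom and WT libraries. The T-cell surface list summed to 210.9 to 266.5 CPM in hom and 274.9 to 411.6 CPM in WT, where WT replicate 2 was highest. The median change of the 12 tested members was 0.001 (log2), with 6 positive and 6 negative.

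Outside lymphoid genes, Lpl had 2.38, 1.61 and 1.84 CPM in hom and 8.12, 8.54 and 6.36 CPM in WT libraries. Lpl encodes lipoprotein lipase, which frees fatty acids from lipoproteins, and it fell to 25.3% of WT (log2 -1.99 ± 0.24, edgeR adjusted p = 0.00185, held in all 6 fits). It was the only called gene of 15 tested genes of lipid uptake and storage. Slc17a8, a vesicular glutamate transporter, was low in all libraries, with 0.443, 0.414 and 0.578 CPM in hom and 2.65, 2.61 and 2.31 CPM in WT (log2 -2.40 ± 0.32, edgeR adjusted p = 0.0025). Tnip3, an inhibitor of NF-kappa B signalling, had 64.8, 60.2 and 51.7 CPM in hom and 95.6, 101 and 89.5 CPM in WT libraries and fell to 61.7% (log2 -0.71 ± 0.09, edgeR adjusted p = 0.00239). Falls of similar size were seen for Itsn1, Hdgfl3 and Tjp1. The endocytic scaffold Itsn1 fell to 62.7% of WT (log2 -0.68 ± 0.09) and Hdgfl3, whose exons overlap another gene in part, to 66% (log2 -0.61 ± 0.07, edgeR adjusted p = 0.00228 and 0.00202). Tjp1, a scaffold of tight junctions named after its values were seen, fell to 67.5% (log2 -0.58 ± 0.08, edgeR adjusted p = 0.00415). Podxl, a sialomucin of stem cells and endothelium, and Nrk, a kinase gene on the X chromosome, were also among the 16 lower genes that held in all 6 fits, and both were named after their values were seen. Podxl had 160.1, 168 and 168 CPM in hom and 223, 207 and 245 CPM in WT libraries (log2 -0.46 ± 0.07). Nrk had 14.5, 19.9 and 23 CPM in hom and 35.1, 40.1 and 43.6 CPM in WT libraries (log2 -1.06 ± 0.16).

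**Figure D3:**
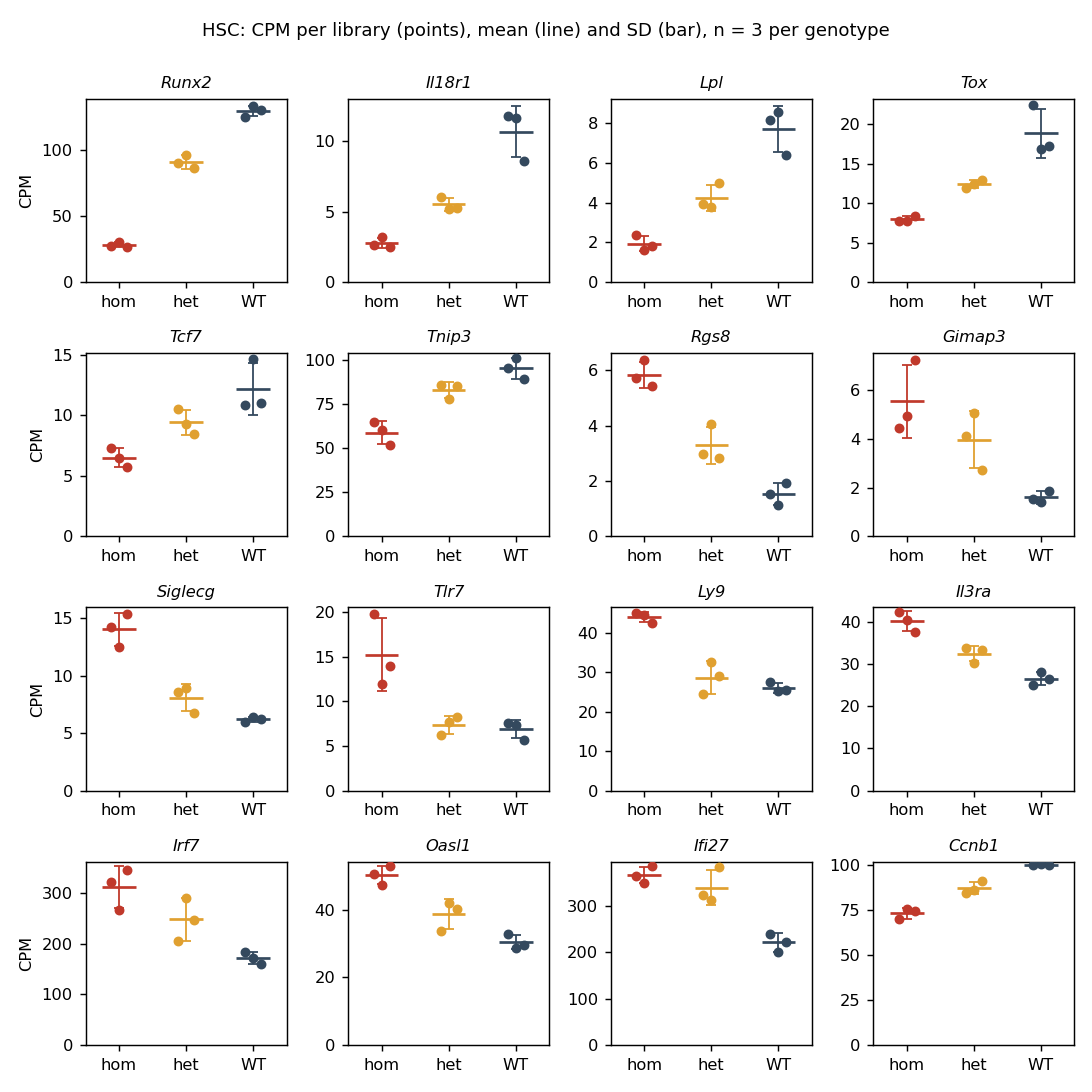
CPM of 16 genes in each HSC library (points), with the mean (line) and SD (bar) of the 3 libraries of hom, het and WT. In all 16 panels the hom points lie clear of the WT points, below them for Runx2, Il18r1, Lpl, Tox, Tcf7, Tnip3 and Ccnb1 and above them for the other 9.

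Of 24 tested genes for collagen maturation and matrix, 5 fell and none rose, beside 0.802% lower over all tested genes. The median change of the list was -0.01. Mmp14, a membrane-bound collagenase, had 3.6, 5.06 and 5.25 CPM in hom and 9.1, 10.5 and 11.3 CPM in WT libraries (log2 -1.16 ± 0.18, edgeR adjusted p = 0.00509) and held in all 6 fits. Serpinh1, a chaperone of collagen, had 2.94, 3.82 and 6.41 CPM in hom and 8.72, 13.4 and 13 CPM in WT libraries (log2 -1.43 ± 0.25, edgeR adjusted p = 0.0116). Pxdn, a peroxidase that cross-links collagen IV, had 0.222, 0.414 and 0.631 CPM in hom and 1.73, 2.61 and 4.06 CPM in WT libraries (log2 -2.73 ± 0.45, edgeR adjusted p = 0.00871). The exons of Pxdn overlap another gene in part. In these 3 genes the lowest WT library stood above the highest hom library. The remaining called members were Serpinf1, a secreted serpin (log2 -1.41 ± 0.26), and Lox, which cross-links collagen and was close to the detection limit in hom (log2 -2.55 ± 0.62). Lox had 0.388, 0.138 and 0.0525 CPM in hom and 0.596, 1.52 and 1.24 CPM in WT libraries. Between 1 and 6 members of the list were called when 1 library was left out, with 1 without hom replicate 2 and 2 without WT replicate 2 or 3. Evc and Evc2, neighbours on chromosome 5 whose products form a ciliary complex of hedgehog signalling, fell together. Evc had 2.27, 3.41 and 6.36 CPM in hom and 10, 9.89 and 11.5 CPM in WT libraries (log2 -1.40 ± 0.27, edgeR adjusted p = 0.0183). Evc2 had 2.44, 3.18 and 4.05 CPM in hom and 6.23, 7.45 and 5.85 CPM in WT libraries (log2 -1.03 ± 0.23, edgeR adjusted p = 0.0368). Both calls were lost without any 1 WT library and without hom replicate 2 (adjusted p 0.0635 to 0.159). The other 10 tested hedgehog and ciliary genes did not pass. None of 7 tested bone targets of Runx2 was called by edgeR or DESeq2, and 2 had an unadjusted p under 0.05. Spp1, the gene of osteopontin, had a log2 change of 0.21 ± 0.14 and Col1a1 of -0.05 ± 0.42, and Ibsp, Dlx5 and Dmp1 were listed at 0.

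Of 18 tested chemokine and chemokine receptor genes 3 fell and none rose by edgeR, and 15 did not pass. Over all tested genes 0.802% fell. The median of the list was -0.38, 7 members had a positive change, and DESeq2 called 2 members higher. Ccl22, a ligand of CCR4, had 1.61, 2.12 and 2.94 CPM in hom and 4.82, 7.71 and 7.64 CPM in WT libraries (log2 -1.61 ± 0.31, edgeR adjusted p = 0.0183). Ccr2, the receptor of monocytes for CCL2, had 1.22, 1.01 and 0.788 CPM in hom and 3.09, 4.57 and 3.12 CPM in WT libraries (log2 -1.84 ± 0.30, edgeR adjusted p = 0.00796). Ccr7, the homing receptor of mature dendritic cells and naive T cells, had 2.77, 2.02 and 3.31 CPM in hom and 6.39, 6.4 and 7.9 CPM in WT libraries (log2 -1.37 ± 0.28, edgeR adjusted p = 0.0246). In none of the 3 did the groups overlap. All 3 calls were lost without WT replicate 2 (adjusted p 0.0634 to 0.0996), and without hom replicate 2 only that of Ccr2 remained. Among 18 tested dendritic cell and MHC class II genes 4 fell and 3 rose. The chains H2-Eb1 and H2-Aa fell, with 1.11, 0.552 and 0.788 CPM for H2-Eb1 in hom and 2.22, 3.4 and 4.61 CPM in WT libraries (log2 -2.09 ± 0.41, edgeR adjusted p = 0.02). H2-DMa and H2-Ob, which act in peptide loading and were named after their values were seen, rose together with Flt3, which is described with the cytokine receptors. H2-Ob had 84.3, 125 and 129 CPM in hom and 74.7, 78.3 and 80.6 CPM in WT libraries (log2 0.52 ± 0.12, edgeR adjusted p = 0.0405). None of the 7 calls of this list was kept without WT replicate 2, WT replicate 3 or hom replicate 2. The H2 genes have annotated copies on alternate contigs, which makes their counts uncertain, and the same holds for Tap1, Tap2 and Kif11. Monocyte and macrophage genes, 12 tested, summed to 239.6 to 281.6 CPM in hom and 245.1 to 262.2 CPM in WT, with C1qa and C1qb listed at 0, and their part in the falls of Ccr2 and the class II chains was not tested.

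The genes described next each rose as single members of their lists. Rgs8, which switches off signals of G-protein-coupled receptors, had 5.71, 6.35 and 5.41 CPM in hom libraries, against 1.52, 1.13 and 1.92 CPM in WT libraries. Het libraries, with 2.99, 4.05 and 2.83 CPM, lay between them. In hom cells Rgs8 stood at 382% of its WT level (log2 1.92 ± 0.26; adjusted p by edgeR, 0.0025; held in all 6 fits), and it was the only called gene of 12 tested RGS genes. Siglecg, an inhibitory receptor of B cells that binds sialic acids, had 14.3, 12.5 and 15.3 CPM in hom and 5.96, 6.4 and 6.23 CPM in WT libraries (log2 1.17 ± 0.16, edgeR adjusted p = 0.0025, held in all 6 fits). Of 7 tested B-cell genes, a list that holds Siglecg, 1 rose and 1 fell, the median was -0.46 and 5 had a negative change. The one that fell is Cd72, a B-cell co-receptor, with 14.6, 14.7 and 15 CPM in hom and 19.5, 20 and 21.2 CPM in WT libraries (log2 -0.46 ± 0.10, edgeR adjusted p = 0.0366). The Cd72 call was kept in 2 of the 6 fits, and its exons overlap another gene in part. The B-cell genes Pax5, Ebf1, Ms4a1 and Vpreb3 were listed at 0 in all hom and WT libraries, and the list of B-cell genes summed to 50.6 to 52.6 CPM in hom and 49.8 to 52.8 CPM in WT. Gimap3, a GTPase of lymphocytes, had 4.43, 4.92 and 7.2 CPM in hom and 1.52, 1.39 and 1.88 CPM in WT libraries (log2 1.77 ± 0.29, edgeR adjusted p = 0.007). It was the only 1 of 8 GIMAP genes called, and without WT replicate 2 its adjusted p was 0.058. Tlr7, the sensor of single-stranded RNA, had 19.8, 12 and 13.9 CPM in hom and 7.58, 7.36 and 5.72 CPM in WT libraries (log2 1.14 ± 0.20, edgeR adjusted p = 0.0129). No other of 16 tested genes of Toll-like receptors and adaptors was called, and without WT replicate 2 or 3 the Tlr7 call was lost as well (adjusted p 0.065 and 0.0714).

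Of 6 tested SLAM family receptors 2 rose and none fell, and 4 did not pass. Ly9, also known as SLAMF3, had 45.2, 44.5 and 42.6 CPM in hom and 27.6, 25.2 and 25.5 CPM in WT libraries (log2 0.75 ± 0.11, edgeR adjusted p = 0.00362, held in all 6 fits). Cd48, whose protein is used to tell progenitors from stem cells, had 237, 216 and 207 CPM in hom and 177, 158 and 183 CPM in WT libraries (log2 0.34 ± 0.08, edgeR adjusted p = 0.0425) and lies close to Ly9 on chromosome 1. Its call was kept in 1 of the 6 fits, the one without hom replicate 3. Cytokine receptor genes, 32 tested, had 2 calls, both higher, a median of 0.04 and a positive change in 17. Il3ra, the alpha chain of the interleukin-3 receptor, had 42.4, 40.4 and 37.7 CPM in hom and 25, 28.1 and 26.5 CPM in WT libraries (log2 0.59 ± 0.09, edgeR adjusted p = 0.00626, held in all 6 fits). Flt3, the receptor that marks multipotent and lymphoid progenitors, had 233, 243 and 253 CPM in hom and 192, 177 and 209 CPM in WT libraries (log2 0.32 ± 0.08, edgeR adjusted p = 0.0467). The Flt3 call was kept in 2 fits, without hom replicate 1 or hom replicate 3. Lat2, an adaptor of immune receptors, had 49.7, 64.1 and 58.3 CPM in hom and 31.2, 27.6 and 37.5 CPM in WT libraries (log2 0.83 ± 0.12, edgeR adjusted p = 0.00362, held in all 6 fits). Of 30 tested integrin and adhesion genes 4 rose and none fell, beside 1.2% higher over all tested genes. The median of the list was -0.01. The leukocyte integrin chain Itgb2 had 141, 161 and 168 CPM in hom and 113, 120.0 and 117 CPM in WT libraries (log2 0.41 ± 0.07), the gut-homing chain Itgb7 a log2 change of 0.62 ± 0.12 and Itga9 one of 0.80 ± 0.15 (edgeR adjusted p = 0.00989, 0.0156 and 0.0165). Each of these 3 calls was lost in 3 of the 6 fits, without hom replicate 2 among them.

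Other genes that rose and held in all 6 fits belonged to no shared list. Plec, the cytoskeletal linker plectin, had 376, 384 and 383 CPM in hom and 248, 269 and 266 CPM in WT libraries (log2 0.53 ± 0.07, edgeR adjusted p = 0.00228, held in all 6 fits). Ralb, a small GTPase of the Ras family, had 52.5, 54.2 and 48 CPM in hom and 31.3, 33.1 and 29.6 CPM in WT libraries (log2 0.71 ± 0.10, edgeR adjusted p = 0.0025). Bsn, a scaffold of presynaptic terminals, had 26.9, 30.1 and 30.6 CPM in hom and 18.7, 15.9 and 17 CPM in WT libraries (log2 0.75 ± 0.11, edgeR adjusted p = 0.00472). Commd10 rose to 182% of WT (log2 0.85 ± 0.12), and its het mean of 52.1 CPM lay above its hom mean of 49.5 CPM. Kmt2d, a histone H3 lysine 4 methyltransferase, and Neat1, the RNA that builds paraspeckles, also held in all 6 fits and were named after their values were seen. Kmt2d had 309.9, 316 and 326 CPM in hom and 213, 217 and 223 CPM in WT libraries (log2 0.53 ± 0.08). Neat1 had 204, 226 and 232 CPM in hom and 136, 113 and 137 CPM in WT libraries (log2 0.77 ± 0.11). Sva had 1.27, 2.81 and 2.52 CPM in hom and 1.55, 2.86 and 2.59 CPM in het libraries and 0 counts in all 3 WT libraries, so hom was at least 15.7-fold higher, taken against 3 counts in each WT library. The predicted gene Gm32920 was the only other called gene with 0 counts in all WT HSC libraries. In HPC Sva had a mean of 1.36 CPM in hom and 0 CPM in WT libraries (edgeR adjusted p = 1.03e-05). Commd10 rose in HPC as well (log2 1.27 ± 0.08, edgeR adjusted p = 1.45e-08). Among the larger rises that did not hold throughout, the vesicular monoamine transporter Slc18a1 had 5.82, 5.02 and 5.2 CPM in hom and 1.89, 2.09 and 1.96 CPM in WT libraries (log2 1.41 ± 0.25, edgeR adjusted p = 0.0129). The dynein gene Dnah8 on chromosome 17 had 15.1, 15.6 and 22.4 CPM in hom and 9.53, 6.23 and 8.54 CPM in WT libraries (log2 1.12 ± 0.18, edgeR adjusted p = 0.00784), a call lost at 0.0504 without WT replicate 2. The germline helicase gene Ddx4 had 8.42, 8.33 and 15.5 CPM in hom and 4.6, 4.27 and 3.76 CPM in WT libraries (log2 1.34 ± 0.25), and hom replicate 3 was far above the other hom libraries.

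Interferon response genes were higher in hom HSC as a group. Of 35 tested members 11 rose and none fell, beside 1.2% higher and 0.802% lower over all tested genes. The median log2 change was 0.41 against 0.00 over all genes. Hom and WT libraries did not overlap for 25 of the 35, where the share over all tested genes was 24.4%, and 34 had a positive change. Irf7, the transcription factor that amplifies interferon production, had 322, 266 and 346 CPM in hom and 183, 172 and 161 CPM in WT libraries (log2 0.85 ± 0.12, edgeR adjusted p = 0.00468). Ifi27l2a had 70.9, 54.4 and 60.2 CPM in hom and 26, 27.6 and 32.2 CPM in WT libraries (log2 1.10 ± 0.15, edgeR adjusted p = 0.00435). Its neighbour Ifi27, which lies within the span of Ifi27l2a and shares exon bases with another gene, had 364, 350.5 and 386 CPM in hom and 240.2, 201 and 223 CPM in WT libraries (log2 0.72 ± 0.09, edgeR adjusted p = 0.0023). Reads of overlapping genes cannot be told apart in unstranded counts. Irf7, Ifi27l2a, Ifi27 and Oasl1 (log2 0.72 ± 0.10) held in all 6 fits, and in each of these 4 the lowest hom library stood above the highest WT library. The antiviral GTPase Mx1 had 48.9, 44.8 and 52.5 CPM in hom and 28.4, 32.9 and 19.4 CPM in WT libraries, and its call (log2 0.85 ± 0.18, edgeR adjusted p = 0.0386) was kept in none of the 6 fits. Stat2, a subunit of the interferon-activated transcription factor, rose to 143% of WT (log2 0.51 ± 0.10), the tetherin gene Bst2 to 136% (log2 0.43 ± 0.10) and Dhx58, a regulator of RNA sensing, to 137% (log2 0.45 ± 0.08). Isg15, a ubiquitin-like modifier, had a log2 change of 0.43 ± 0.14 and Ifit1 one of 0.26 ± 0.14, and neither passed. The receptor genes Ifnar1 and Ifnar2 did not pass either (log2 -0.03 ± 0.07 and 0.05 ± 0.07).

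The size of the interferon difference moved with the library. The mean over the 35 genes, as log2 relative to the WT mean, was 0.40, 0.27 and 0.53 in hom libraries 1 to 3, against 0.05, 0.04 and -0.09 in WT libraries. Het replicate 2 stood at 0.34, higher than hom replicate 2, while het replicates 1 and 3 stood at -0.05 and 0.12. The number of called members was 4 without WT replicate 2, 5 without WT replicate 3, 6 without WT replicate 1, 7 without hom replicate 2, 10 without hom replicate 3 and 11 without hom replicate 1. The direction was upward for all called members in each of these fits.

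The interferon response element, searched as GAAA, any pair of bases and GAAA again, on both strands of the same promoter windows, was found for 13 of the 24 tested interferon response genes with a promoter (54.2%), against 3.74% of all genes, 7.69% of the higher and 4.12% of the lower genes. The list consists of genes known to respond to interferon, so the motif is a property of the list. The window of Oas3 (chr5:120777610-120777909, minus strand) is shown as an example from the run of Oas genes, with the element in capitals. This element was chosen after the calls were seen. A match of 1 motif may share its end bases with a match of another.
Oas3: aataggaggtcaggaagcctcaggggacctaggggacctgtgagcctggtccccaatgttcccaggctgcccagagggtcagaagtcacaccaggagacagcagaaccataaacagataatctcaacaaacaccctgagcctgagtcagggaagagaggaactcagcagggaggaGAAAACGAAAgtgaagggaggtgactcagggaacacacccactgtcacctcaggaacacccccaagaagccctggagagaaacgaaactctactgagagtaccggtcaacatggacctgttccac

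Of 9 tested IFI200 genes, a family of interferon-inducible DNA-binding proteins on chromosome 1, 3 rose and none fell. Ifi209 had 9.09, 7 and 5.94 CPM in hom and 1.3, 2.31 and 1.75 CPM in WT libraries (log2 2.02 ± 0.34, edgeR adjusted p = 0.0109). Ifi206 had 44.4, 36 and 41.1 CPM in hom and 20.3, 24.4 and 15.8 CPM in WT libraries (log2 1.00 ± 0.18, edgeR adjusted p = 0.0142), and Ifi208 a log2 change of 0.96 ± 0.20. None of the 3 was called without WT replicate 3, where the adjusted p lay between 0.0545 and 0.112. Genes of this family are near-identical in part, so reads could be split between them. Of 14 tested genes for antigen presentation by MHC class I, 3 rose and none fell. The peptide transporter genes rose by small steps, Tap1 to 123% (log2 0.28 ± 0.06) and Tap2 to 130.2% (log2 0.37 ± 0.07) of the WT level, with adjusted p by edgeR of 0.0386 and 0.0185, and the nonclassical class I gene H2-T23 to 129% (log2 0.35 ± 0.08). None of the 3 was called without any 1 WT library or without hom replicate 2. B2m, the light chain of class I, had a log2 change of -0.12 ± 0.08 and H2-K1, a classical heavy chain, one of 0.13 ± 0.07. Of 14 tested guanylate binding proteins and immunity GTPases edgeR called none and DESeq2 1, higher, 1 had an unadjusted p under 0.05, and their mean relative to WT was -0.23, -0.14 and 0.53 in hom libraries 1 to 3.

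Genes of G2 and mitosis were lower in hom HSC as a group, by less. All 34 tested members had a negative change, with a median of -0.25 (log2), and 7 fell, beside 0.802% of all tested genes. Ccnb1, cyclin B1, which drives entry into mitosis, had 69.7, 75.6 and 74 CPM in hom and 99.7, 100.1 and 99.8 CPM in WT libraries. At 73.2% of its WT level (log2 -0.46 ± 0.07; adjusted p by edgeR, 0.00419), it was the only member to hold in all 6 fits. Ccna2, cyclin A2, had 104, 111 and 106 CPM in hom and 139.7, 133 and 137 CPM in WT libraries (log2 -0.36 ± 0.06, edgeR adjusted p = 0.0116). The spindle protein Nusap1 had 83.7, 82.5 and 88.2 CPM in hom and 116, 107 and 112 CPM in WT libraries (log2 -0.41 ± 0.07, edgeR adjusted p = 0.00882), and the kinetochore protein Nuf2 51.3, 49.8 and 46.9 CPM in hom and 64.3, 68.2 and 63.3 CPM in WT libraries (log2 -0.41 ± 0.08, edgeR adjusted p = 0.0245). Cdk1, the kinase partner of cyclin B, fell to 82.6% of WT (log2 -0.29 ± 0.07). The spindle proteins Kif11 and Prc1 fell to 82.3% (log2 -0.29 ± 0.07) and 80.7% (log2 -0.32 ± 0.07). Mki67, a common marker of dividing cells, had a log2 change of -0.11 ± 0.09 and Aurkb one of -0.05 ± 0.10, and neither passed. The exons of Nusap1, Ccna2 and Prc1 overlap those of other genes in part, so these counts are less certain. Hom and WT libraries did not overlap for 25 of the 34 genes, beside the 24.4% over all genes.

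The 3 hom libraries were close to each other in this group. The mean over the 34 genes relative to WT was -0.26, -0.24 and -0.23 in hom libraries 1 to 3, against 0.04, -0.03 and -0.01 in WT libraries and -0.17, -0.14 and -0.15 in het libraries. The number of called members still changed when 1 library was left out. It was 1 without WT replicate 1, and 2 without WT replicate 2, WT replicate 3 or hom replicate 2. Without hom replicate 1 it was 6, and without hom replicate 3 it was 8. None of 29 tested S phase genes was called by edgeR or DESeq2. An unadjusted p under 0.05 was found for 3 of them, beside 18.4% of all tested genes. Their median was -0.09, and their mean relative to WT was 0.19, -0.11 and -0.35 in hom libraries 1 to 3, so hom replicate 1 lay above the WT libraries and hom replicate 3 below them. Without hom replicate 1, 6 S phase genes were called lower, and without hom replicate 3, 1 was called higher. None of 16 tested G1 cyclins and CDK inhibitors was called by edgeR (median -0.08), 4 had an unadjusted p under 0.05 and DESeq2 called 1 lower.

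**Figure D4:**
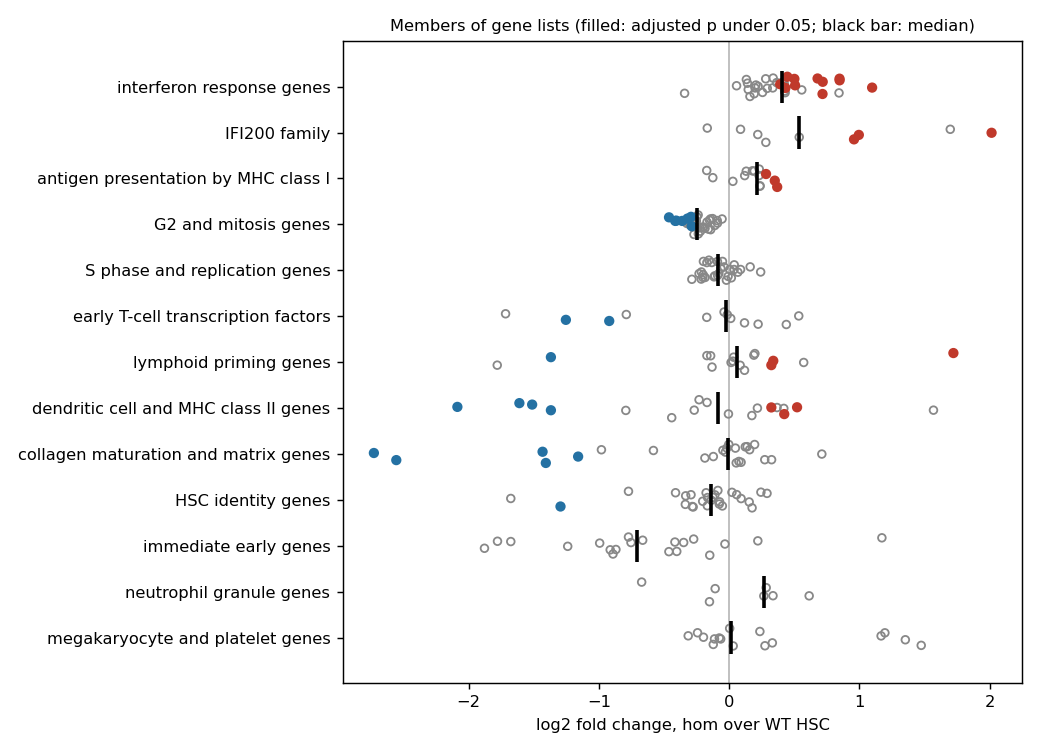
Log2 fold change of hom over WT HSC (horizontal axis) for each tested member of 13 gene lists. Filled points passed an edgeR adjusted p under 0.05 (red higher, blue lower in hom), open points did not, and the black bar is the median of the list. Interferon response genes lie almost wholly to the right of 0 and G2 and mitosis genes wholly to the left.

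Other lists held few or no called genes. Of 16 tested lymphoid priming genes 3 rose and 1 fell, with a median of 0.06. Hoxa3 (log2 0.59 ± 0.14) was the only called gene of 17 tested HOX genes. Of its exon bases 38.8% overlap another gene, and its call was kept in 1 of the 6 fits. Among other lists Jag2, a Notch ligand (log2 0.40 ± 0.08), was the only call among 14 Notch pathway genes and Unc5a, a netrin receptor (log2 0.85 ± 0.15), the only 1 of 32 axon guidance genes. Yes1 (log2 -0.68 ± 0.17) was the only called gene of 12 Src family and related kinases, kept in 1 of the 6 fits and with exons that overlap another gene in part, and Hemgn, a nuclear protein of erythroid and stem cells (log2 -0.42 ± 0.08), the only 1 of 9 tested erythroid genes. No member was called by edgeR or DESeq2 among 7 stem cell heptad partners, 26 genes of the MYC family and ribosome biogenesis, 23 of cholesterol synthesis, 23 of glycolysis and hypoxia, 21 of the respiratory chain and 25 cytosolic ribosomal proteins, where 1 to 3 members of a list had an unadjusted p under 0.05. EdgeR called none either among 16 STAT and SOCS genes, 20 p53 targets, 23 genes of the TGF-beta and BMP pathway and 22 nuclear receptors. In these, 4 to 7 members of a list had an unadjusted p under 0.05, and DESeq2 called 2, 4, 4 and 3. Immediate early genes had the lowest median of these, -0.71 (log2) over 20 tested members. EdgeR called none and DESeq2 1, lower, and 6 had an unadjusted p under 0.05, beside 18.4% of all tested genes. Their mean relative to WT was -0.94, -0.82 and -0.24 in hom libraries, against -0.44, 0.47 and -0.03 in WT libraries, so the groups overlapped. Jun (log2 -1.24 ± 0.42) and Egr1 (log2 -1.68 ± 1.01), both induced within minutes of a stimulus, show the size of the errors.

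Markers of other blood lineages varied among the hom libraries. Neutrophil granule genes, 7 tested, had a mean of 0.46, -0.18 and -0.50 relative to WT in hom libraries 1 to 3 and summed to 174.7 to 223.9 CPM in hom and 151.1 to 169.2 CPM in WT. Lcn2, S100a9 and Retnlg were listed at 0. EdgeR called none and DESeq2 1, lower, and 1 had an unadjusted p under 0.05. Eosinophil, basophil and mast cell genes, 9 tested, had a mean of 0.67, 0.56 and -0.31 in hom libraries and summed to 653.2 to 737.8 CPM in hom and 642.9 to 664.3 CPM in WT, with Epx, Prg3 and Ear1 listed at 0. Neither tool called any, and 2 had an unadjusted p under 0.05. Of 16 tested megakaryocyte and platelet genes and 9 tested endothelial and stromal genes edgeR called none, and DESeq2 called 1 in each list, higher. An unadjusted p under 0.05 was found for 6 and 3 of them, beside 18.4% of all tested genes. The part of these cells in the results was not tested.

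By position, called genes were counted near Runx2 and in runs of neighbours. On chromosome 17, which holds Runx2, 26 of 801 tested genes were called (3.25%), 21 higher and 5 lower, against 2.01% over all chromosomes. Within 20 Mb of Runx2 21 of 501 genes were called (4.19%), 18 higher and 3 lower, and within 5 Mb 4 of 92 (4.35%). Those 4 were Cul9, Enpp4, Pex6 and a predicted gene. The window of 20 Mb takes in the MHC, where 8 called genes lay within 200 kb of the next one at chr17:33974659-34316674 (mm10). They were H2-K2, Col11a2, H2-DMa, Tap1, Tap2 and H2-Ob, which rose, and H2-Aa and H2-Eb1, which fell, of 23 genes tested between them. Across the genome 69 of the 300 genes stood in 29 such runs of called neighbours, 26 of them in 1 direction. The Oas genes on chromosome 5 formed the longest run in 1 direction, with 5 of 7 tested genes. Oas1b had 37.5, 43.3 and 36.9 CPM in hom and 25, 23.5 and 24.9 CPM in WT libraries (log2 0.67 ± 0.10, edgeR adjusted p = 0.00362, held in all 6 fits). Oas2, with 454, 450.0 and 561 CPM in hom and 322, 294 and 292 CPM in WT libraries, rose by log2 0.68 ± 0.11. Oas3, with 461, 432 and 511 CPM in hom and 335, 333 and 317 CPM in WT libraries, rose by log2 0.50 ± 0.10. The summed exon length had a median of 5501 bases among the higher genes, 3881 among the lower ones and 3552 over all tested genes. Among the genes that held in all 6 fits the order was reversed, with 3758 bases for the higher and 4906 for the lower ones.

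HPC gave a second set of libraries in which the same knockout could be compared. Of the 13855 genes tested there 9.21% were called in hom against WT (4.92% higher, 4.29% lower). Of the 300 HSC genes 292 were tested in HPC, and 92 were called there in the same direction, 47 higher and 45 lower. These are 30.7% of the HSC calls and 7.21% of the HPC calls. The shared genes include Il18r1 (log2 -2.38 ± 0.17 in HPC), Tox (-1.53 ± 0.13), Rgs8 (1.81 ± 0.19) and Tlr7 (1.07 ± 0.09). HSC and HPC libraries also differ in sex-linked transcripts. All 9 HSC libraries had 121 to 167 CPM of the Y-linked Ddx3y, the 9 HPC libraries had 0, and Xist stood at 2540 to 4480 CPM in HPC and at most 1.26 CPM in HSC. Cell type and donor sex therefore cannot be told apart in any difference between HSC and HPC, while hom and WT HSC are alike in these transcripts.

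The difference of the hom effect between both populations, tested in 1 fit of all 18 libraries, was called for 2.79% of 15431 genes, 1.06% higher and 1.73% lower in HSC. Of the 300 HSC genes it was called for 88, 49 that were higher and 39 that were lower in hom HSC. Lpl fell in hom HSC and rose in hom HPC (log2 1.51 ± 0.18), a difference of -3.53 ± 0.30 (edgeR adjusted p = 5.35e-07). Ccr2 and Mpeg1, the gene of a pore-forming protein of macrophages, did the same. Ccr2 had a log2 change of -1.84 ± 0.30 in HSC and 0.78 ± 0.09 in HPC, a difference of -2.65 ± 0.24 (edgeR adjusted p = 9.73e-07). Mpeg1 had -1.18 ± 0.26 in HSC and 0.86 ± 0.09 in HPC, a difference of -2.06 ± 0.21 (edgeR adjusted p = 4.99e-06). Both genes were far lower in HSC than in HPC. In HSC the hom and WT means were 1.01 and 3.59 CPM for Ccr2 and 2.35 and 5.28 CPM for Mpeg1. In HPC they were 61.3 and 36.1 CPM for Ccr2 and 124 and 69.3 CPM for Mpeg1. The Mpeg1 call in HSC was kept in 2 of the 6 leave-one-out fits. App, Kbtbd2, Pck2 and Jag2 were the other genes called in opposite directions. Interferon response genes had a median change of -0.002 (log2) over 35 tested members in HPC, against 0.41 in HSC. In HPC 2 of them rose and 1 fell, where 4.92% of all genes were called higher and 4.29% lower. Irf7 had a log2 change of -0.02 ± 0.08 in HPC, and its difference of 0.85 ± 0.16 passed (edgeR adjusted p = 0.00904). The difference also passed for Ifi27 (0.62 ± 0.11), Oasl1 (0.66 ± 0.14) and Oas1b (0.71 ± 0.14; edgeR adjusted p = 0.00339, 0.0113 and 0.00953). It did not pass for Ifi27l2a (edgeR adjusted p = 0.168), which rose in HPC too (log2 0.48 ± 0.12). IFI200 genes also rose in HPC, 5 of 9 tested with 0 lower and a median of 0.365 (log2). The difference did not pass for Ifi209 and Ifi206 (edgeR adjusted p = 0.531 and 0.173) and passed for Ifi208 (edgeR adjusted p = 0.0495). G2 and mitosis genes had a median of 0.00 over 34 tested members in HPC, against -0.25 in HSC. The difference passed for Ccnb1 (-0.48 ± 0.10), Nusap1 (-0.45 ± 0.09), Nuf2 (-0.50 ± 0.12) and Ccna2 (-0.36 ± 0.10; edgeR adjusted p = 0.00975, 0.00774, 0.0247 and 0.0495). Thy1 fell further in HPC (log2 -1.80 ± 0.15) than in HSC, a difference of 1.03 ± 0.23 (edgeR adjusted p = 0.0187), and so did Yes1 and Zfp532. For Il18r1 the difference was 0.42 ± 0.26, for Tox 0.26 ± 0.19 and for Rgs8 0.09 ± 0.32, and none of the 3 passed (edgeR adjusted p = 0.412, 0.514 and 0.921).

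**Figure D5:**
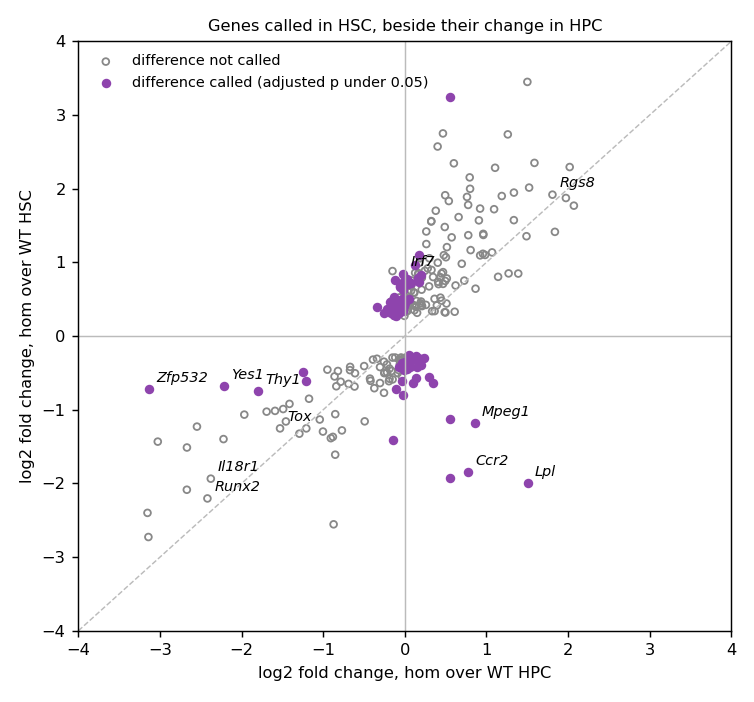
Log2 fold change of hom over WT in HSC (vertical axis) against the same change in HPC (horizontal axis) for 290 of the called HSC genes tested in both, leaving out the 2 genes with 0 counts in all WT HSC libraries. Filled points are genes whose difference between both populations passed an edgeR adjusted p under 0.05, and the dashed line marks equal change. Lpl, Ccr2 and Mpeg1 lie in the lower right, lower in hom HSC and higher in hom HPC.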

How the data were processed

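RNA was measured in 9 HSC and 9 HPC libraries (3 each of hom, het and WT). Per the file headers, the deposited values are raw read counts per gene, made by the authors with featureCounts 2.0.6 on paired reads without strand over the exons of an mm10 RefSeq annotation. The submitters' processing notes also name FastQC, Trim Galore 0.6.10, STAR 2.7.11a and the build mm39, and coordinates here are those of the count tables. The CUT&Tag libraries are not analysed here.

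Counts were tested with edgeR 4.0.16 (R 4.3.3; limma 3.58.1): genes that passed filterByExpr, TMM scaling, a robust quasi-likelihood fit of the 9 HSC libraries with genotype as the only term, and Benjamini-Hochberg adjustment over all 14959 genes. Calls were made below an adjusted p of 0.05. The standard error is the log2 fold change divided by the square root of F. CPM were taken over the counts in tested genes, scaled by TMM. For lists, log2 CPM used a prior count of 2. HPC were fitted alone, and the difference of the hom effect in a fit of all 18 libraries. Scripts were tested on simulated data.

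Alternatives were no filter, RLE size factors, DESeq2 1.42.0, at least 1 CPM in 3 libraries, hom and WT libraries alone, the replicate number as a block, and each library left out in turn. The gene lists (52) and members were chosen with earlier results of these data known. Named genes were Runx1, Runx2, Runx3, Cbfb and the sort markers; the 12 largest rises and 12 largest falls among called genes with groups apart and at least 5 CPM in the higher group; the 6 higher and 6 lower with the smallest p; up to 20 called in all 6 leave-one-out fits; up to 4 called members of each list; and the 4 in each direction with the smallest p for the difference. Predicted genes were left out of the names, and some that the rule would take are not reported here. Other genes in the text, called list members beyond the first 4 included, were named after their values were seen.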

Additional observations from a re-analysis of the deposited data

Results flagged for a closer look

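For 29 of 80 genes chosen by the naming rule the effect of hom against WT differed between HSC and HPC in the 18-library fit (edgeR adjusted p under 0.05), 20 higher and 9 lower in HSC. Values are the hom change in HSC minus that in HPC (log2). Cell type and donor sex cannot be told apart in any of them.

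The lower values were -3.53 ± 0.30 for Lpl, -2.65 ± 0.24 for Ccr2, -2.06 ± 0.21 for Mpeg1 and -1.28 ± 0.30 for Serpinf1. Kbtbd2 had -0.56 ± 0.09, and the mitotic genes Nuf2, Ccnb1, Nusap1 and Ccna2 had -0.50 ± 0.12, -0.48 ± 0.10, -0.45 ± 0.09 and -0.36 ± 0.10.

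Higher values came partly from genes that fell in both populations and by more in HPC. These were Zfp532 (2.39 ± 0.36), Yes1 (1.51 ± 0.31), Thy1 (1.03 ± 0.23), Myh10, a non-muscle myosin (0.74 ± 0.12), and Hdgfl3 (0.58 ± 0.10). Zfp532 had a log2 change of -0.72 ± 0.16 in HSC and -3.13 ± 0.31 in HPC.

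Other higher values belonged to genes that rose in HSC. The interferon and antigen presentation genes were Irf7 (0.85 ± 0.16), Ifi208 (0.82 ± 0.22), Oas1b (0.71 ± 0.14), Oasl1 (0.66 ± 0.14), Ifi27 (0.62 ± 0.11), Tap2 (0.40 ± 0.10) and Tap1 (0.40 ± 0.08). The others were Trpm2, a cation channel (0.90 ± 0.23), Bsn (0.85 ± 0.14), Jag2 (0.72 ± 0.13), Plec (0.65 ± 0.11), Itgb7 (0.63 ± 0.13), Lat2 (0.61 ± 0.13) and Pck2, an enzyme of gluconeogenesis (0.56 ± 0.09).

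Runx3 passed this test with 0.38 ± 0.10 (edgeR adjusted p = 0.0488), although its change in HSC did not pass. It had 0.14 ± 0.06 in HSC and -0.26 ± 0.08 in HPC (edgeR adjusted p = 0.0406). Groups of 3 libraries were too small to look for single outlying libraries by Dixon's ratio.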

How the results depend on the processing

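The 300 called genes became 810 with DESeq2, 898 with no filter on low counts, 155 with hom and WT libraries alone and 48 to 638 with 1 library left out. Shared calls with HPC, 92, became 193 with DESeq2, 262 with no filter, 58 with hom and WT libraries alone and 27 to 170 with 1 library left out. The difference between HSC and HPC, 431 genes, became 851 with DESeq2, 738 with no filter and 149 to 941 with 1 library left out, and the split was 208 higher and 201 lower with at least 1 CPM in 3 libraries against 164 and 267. The cause of these shifts was not tested.

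The labels do not say whether replicate numbers pair the libraries, and the main fit used no block. Same-numbered hom and WT libraries had deviations from their group means that correlated at 0.14, 0.03 and 0.12. Each was the highest for that hom library among WT libraries, a hint of pairing from the data and not from the design. The het libraries did not share it. Same-numbered hom and het libraries correlated at 0.03, -0.06 and -0.13, and same-numbered WT and het libraries at 0.004, -0.02 and 0.03. None of these was the highest for that hom or WT library among het libraries. With the replicate block 189 genes were called, 82 were shared with HPC and 414 differed.

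Of 74 called genes chosen by the rule, all stayed called with DESeq2, RLE size factors, no filter and at least 1 CPM, 62 with the block, 56 with hom and WT libraries alone and 31 to 71 with 1 library left out. The uncalled Procr changed sign with 1 library left out (log2 -0.035 without hom replicate 3, up to 0.35 without hom replicate 1). What depth limits among genes with low counts was not tested.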
